A study of Mus musculus with 2 samples.

Results

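Sertoli cells were followed in 2 single-cell RNA libraries of whole mouse testis, 1 from a Prm2 -/- (knockout) and 1 from a Prm2 +/- (heterozygous) animal or pool, which the labels do not tell apart. Prm2 encodes protamine 2, which packs DNA in the sperm head. The labels do not give the strain, the age or which stretch of Prm2 was altered, and no library with 2 intact copies was analysed here. Per the labels' protocols, tubules were freed from the testis, washed to remove Leydig cells and dispersed with collagenase and Accutase before capture with a 10x Genomics 3' kit, so the cells measured are those that survived dispersal. The files give counts of unique molecular identifiers (UMIs, 1 per captured RNA molecule) per gene and cell barcode.

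A barcode was counted as a Sertoli barcode when Cst9, Cst12, Defb36, Defb19, Aard, Rhox8, Cldn11 and Sox9 together held at least 3 UMIs and at least 0.4% of its UMIs, when Insl3, Star, Cyp17a1 and Cyp11a1, which mark Leydig cells, held fewer than 5, and when mitochondrial transcripts held at most 20%. This gave 1804 of 37541 barcodes, 893 of 22503 in the knockout library and 911 of 15038 in the heterozygous library. The share was 3.97% in the knockout library (exact Clopper-Pearson interval 3.72 to 4.23%) and 6.06% in the heterozygous library (5.68 to 6.45%). With 1 library per genotype no difference below has a replicate check, no test was possible, and all intervals are at 95% and show counting error alone. The share also followed depth, which differed between the libraries: among barcodes of 1000 to 2000 UMIs it was 6.79% in the knockout and 7.21% in the heterozygous library, and from 4000 UMIs upward 1.06% and 0.819%.

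Sertoli cells are the somatic cells of the seminiferous tubule. They line its wall, hold the germ cells between them, seal the inner part of the epithelium with tight junctions known as the blood-testis barrier, and take up the cytoplasm that spermatids shed. They respond to follicle-stimulating hormone and testosterone, secrete proteins into the tubule fluid, and do not make protamines.

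The promoters of 3 of the 8 rule genes are shown because the values below turn on these secreted-protein genes. In Sertoli barcodes Cst9 stood higher and Cst12 and Defb36 lower in the knockout library. All 3 lie on chromosome 2, and Cst9 and Cst12 are paralogs of the cystatin family of protease inhibitors. Each run covers 250 bases before to 50 bases after the start of the gene, on the plus strand, from RefSeq on build GRCm38.p6, where 4 of the 8 rule genes were matched. Capitals mark the steroid receptor hexamer AGAACA or its reverse complement TGTTCT, the SOX core AACAAT or ATTGTT, and the GATA core AGATAA or TTATCT, searched on both strands with no 2 matches overlapping. The runs are at chr2:148834897-148835196 for Cst9, chr2:148789115-148789414 for Cst12 and chr2:152604077-152604376 for Defb36.
Cst9: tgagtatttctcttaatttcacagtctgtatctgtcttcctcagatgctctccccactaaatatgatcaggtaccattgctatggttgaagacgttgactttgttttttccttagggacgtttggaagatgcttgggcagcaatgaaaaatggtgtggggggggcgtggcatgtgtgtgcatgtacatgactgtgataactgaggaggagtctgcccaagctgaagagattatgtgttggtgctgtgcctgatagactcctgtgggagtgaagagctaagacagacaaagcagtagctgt
Cst12: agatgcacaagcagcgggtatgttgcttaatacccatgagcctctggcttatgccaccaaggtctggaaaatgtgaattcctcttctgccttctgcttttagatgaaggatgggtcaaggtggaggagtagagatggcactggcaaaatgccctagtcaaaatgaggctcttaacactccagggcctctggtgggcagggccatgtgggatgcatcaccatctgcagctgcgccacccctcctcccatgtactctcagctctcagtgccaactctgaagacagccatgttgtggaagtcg
Defb36: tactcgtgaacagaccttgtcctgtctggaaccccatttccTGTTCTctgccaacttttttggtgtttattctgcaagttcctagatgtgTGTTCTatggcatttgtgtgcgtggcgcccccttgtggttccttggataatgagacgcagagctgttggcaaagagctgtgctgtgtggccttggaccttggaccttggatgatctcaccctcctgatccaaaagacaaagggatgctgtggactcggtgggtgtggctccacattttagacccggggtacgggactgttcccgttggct
Only Defb36 of these 3 held a match, with the hexamer at 209 and 160 bases before the start. Of 32851 promoters of this length, 19.0% held the hexamer, 10.7% the SOX core and 11.2% the GATA core, so a match in 1 of 3 windows is a description and marks no binding site.

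Sertoli markers that the rule did not use were also higher in these barcodes than in all other barcodes. The summed level of 22 other Sertoli genes, given as CPM (the UMIs of a gene scaled to a fixed total of all UMIs in the summed barcodes), was 6268 CPM in Sertoli barcodes of the knockout library and 4158 CPM in those of the heterozygous library, against 209.9 and 106.6 CPM in all other barcodes. That is 29.9-fold and 39.03-fold, with no test because the barcodes were chosen by expression. In Leydig barcodes, defined below, the same sum was 2069 and 2369.5 CPM, so Sertoli barcodes stood far less above these somatic cells. Ctsl (2252 and 944.2 CPM) and Clu (1287 and 1066 CPM) made up much of the sum in Sertoli barcodes. With barcodes thinned to 500 UMIs, Ctsl was seen in 25.5% and 14.9% of Leydig barcodes and Clu in 29.6% and 32.7%. The genes outside the rule that stood highest over other barcodes included Wfdc10, with 473.6 CPM in knockout and 526.4 CPM in heterozygous Sertoli barcodes, Amhr2, the receptor of anti-Müllerian hormone, with 559.8 and 388.8 CPM, Defb45, a defensin gene beside Defb36, with 302.2 and 262.1 CPM, and Qpct, Clec12b, Tmem114, Prnd, Tmem184a, Cstdc1 and Cidea. At full depth, none of the 22 other markers was seen in 64 knockout (7.17%) and 133 heterozygous barcodes (14.6%). The rule itself asks for UMIs of its 8 markers, so their number per barcode is a description only: its median was 5 in the knockout and 4 in the heterozygous library at full depth, and 3 in both after thinning to 500 UMIs.

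Sertoli barcodes were shallow. Their median depth was 1470 UMIs in the knockout and 1012 in the heterozygous library, against 3945 and 2083 in all other barcodes, and their median number of genes was 1042 and 720. Whether some of them were droplets that held mainly free RNA was not tested, and the member counts, shares and ratios given here include any such droplets. Mitochondrial transcripts held a median of 6.25% and 4.46% of their UMIs. In sum they gave 1948987 and 1373588 UMIs of library totals of 123588822 and 71364845. Of the 88 barcode sequences that both libraries share, 3 were Sertoli barcodes in the knockout and 5 in the heterozygous library, and none in both. Just inside the marker limit, at 0.4 to 0.5%, lay 153 knockout and 167 heterozygous barcodes, in which the 22 other markers held 0.249% and 0.144% of UMIs. Just outside it, at 0.3 to 0.4%, lay 260 and 158 barcodes with 0.176% and 0.112%. Exactly 3 marker UMIs carried 29 knockout and 45 heterozygous barcodes. A barcode with 2 marker UMIs could reach the share only at exactly 500 UMIs, the lowest depth in the files, and none did. The Leydig limit left out 44 knockout and 35 heterozygous barcodes that passed both marker limits, and the mitochondrial limit 24 and 41.

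**Figure D1:**
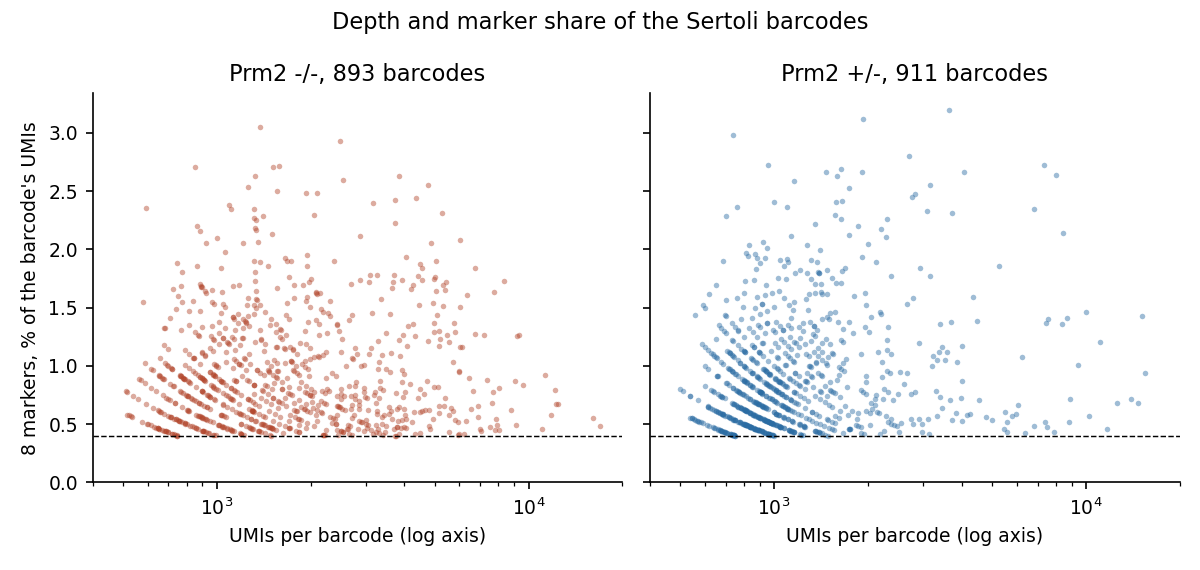
Each point is a Sertoli barcode, with its UMIs on a log axis and the share of its UMIs from the 8 rule markers, for the knockout library (left, 893 barcodes) and the heterozygous library (right, 911 barcodes). The dashed line is the 0.4% limit. The median depth was 1470 UMIs in the knockout and 1012 in the heterozygous library.

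The 8 rule markers together took nearly the same share of UMIs in both libraries, 0.952% in knockout and 0.977% in heterozygous Sertoli barcodes, but in different proportions. The rule set a lower limit on this sum in each barcode, so its likeness is partly fixed by the choice, and in all other barcodes the same sum was 298.4 CPM in the knockout and 133.5 CPM in the heterozygous library. Cst9 stood at 2086 CPM in the knockout library (4066 UMIs) and 1013 CPM in the heterozygous library (1391 UMIs), a log2 ratio of 1.04 (0.95 to 1.13). Its paralog Cst12 stood at 1252 and 1496 CPM, a log2 ratio of -0.26 (-0.34 to -0.17). Cst9 was thus the higher of the pair in the knockout library and Cst12 in the heterozygous library, and this order held in each of the 4 depth classes tried, from 500 UMIs upward.

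Defb36, a beta-defensin, stood at 441.8 CPM in knockout (861 UMIs) and 895.5 CPM in heterozygous Sertoli barcodes (1230 UMIs), a log2 ratio of -1.02 (-1.15 to -0.89). Defb19, near it on chromosome 2 and the most abundant marker, stood at 3580 and 4761 CPM (-0.41, -0.46 to -0.36). Both were lower in the knockout library in all 4 depth classes. The transcription factor Sox9, which sets Sertoli fate in the embryonic gonad, was scarce at 75.9 CPM in the knockout library (148 UMIs) and 29.9 CPM in the heterozygous library (41 UMIs), a log2 ratio of 1.35 (0.84 to 1.88). Aard stood at 1579 and 1103 CPM (0.52), the barrier claudin gene Cldn11 at 132.4 and 72.8 CPM (0.86), and the homeobox gene Rhox8 at 368.4 and 397.5 CPM (-0.11, -0.27 to 0.05). The rule took the sum of these 8, so the part of each is not independent of the others. In all other barcodes each of the 8 was higher in the knockout library, with a median log2 ratio of 1.72. There Defb19 stood at 0.61, Defb36 at 0.65, Cst12 at 1.27 and Rhox8 at 1.53, the opposite direction to Sertoli barcodes. Cst9 stood at 2.62 and Sox9 at 2.99, larger than in Sertoli barcodes.

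The shares of barcodes with a UMI, with each barcode thinned to 500 UMIs, gave the same order of the libraries for 7 of the 8 rule markers, and the opposite order for Rhox8, at 18.03% in the knockout and 17.2% in the heterozygous library. Cst9 was seen in 59.0% of knockout and 34.5% of heterozygous Sertoli barcodes, against 2.06% and 0.481% of Leydig barcodes, and Defb36 in 18.3% and 32.7%, against 0.412% and 0%. No barcode was left out by this thinning, and without it Cst9 was seen in 89.03% and 62.8%. Leydig barcodes, 243 and 208, are those with at least 5 UMIs and at least 0.4% of their UMIs from the 4 Leydig genes, with median depths of 4361 and 2498 UMIs. The 0% is 0 of 208 thinned barcodes, which allows a share of barcodes with a UMI of up to 1.44% by a floor of 3 counts, or up to 1.76% by the exact Clopper-Pearson interval. Defb19 was seen in 77.04% of knockout and 84.7% of heterozygous Sertoli barcodes but also in 64.6% and 58.2% of Leydig barcodes, so among the rule markers it separated these cell types least. Leydig barcodes held more Clu than other barcodes as well, with a UMI in 32.1% and 23.5% of Sertoli barcodes against 29.6% and 32.7% of Leydig barcodes, so a Clu UMI did not set the Sertoli barcodes apart from these.

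**Figure D2:**
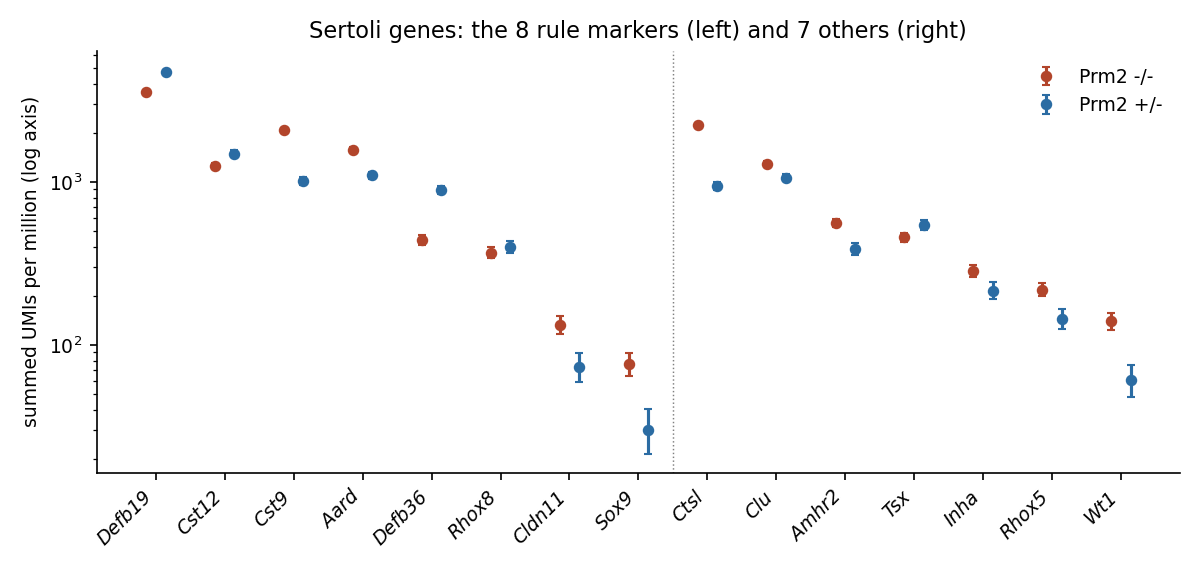
Level of each gene in summed Sertoli barcodes, in CPM on a log axis, with exact Poisson intervals for counting error, for the knockout library (left point of each pair) and the heterozygous library (right point). Left of the dotted line are the 8 rule markers, among which Defb36 shows the widest gap with the heterozygous library higher, and right of it 7 other Sertoli genes, of which Tsx alone was higher in the heterozygous library.

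Across the transcriptome, 3681 genes with a mean of at least 50 CPM and at least 100 UMIs over both libraries were compared in Sertoli barcodes. The minimum was a mean, so a gene below 50 CPM in 1 library could pass it through the other. A 2-fold difference, used as a rule of size and not as a test, was reached by 173 genes higher in the knockout library (4.7%) and by 24 lower ones (0.652%), and the median log2 ratio was 0.09, with 57.5% of genes above 0. With scaling by trimmed mean of M values (TMM), which shifts every log2 ratio by -0.25, the split was 68 higher and 80 lower. Among the 447 genes whose level in Sertoli barcodes was at least 3 times that in all other barcodes, 58 were higher by 2-fold or more (13%) and 4 lower by as much (0.895%), with a median log2 ratio of 0.36 and 73.6% of genes above 0. With TMM scaling these were 29 and 6, with a median of 0.11. In all other barcodes the same 447 genes had a median log2 ratio of 0.50. Among barcodes of 1000 to 2000 UMIs in both libraries, 161 such genes could be compared, of which 7 were past 2-fold upward and 6 downward, with a median log2 ratio of 0.12.

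The highest ratio among the 447 genes, clone-based and predicted names left out, was that of Psap, which encodes prosaposin, the precursor of lysosomal activators of lipid breakdown. It stood at 280.1 CPM in the knockout library (546 UMIs) and 78.6 CPM in the heterozygous library (108 UMIs), a log2 ratio of 1.83 (1.53 to 2.15). Its log2 ratio was between 1.48 and 2.04 in all 13 other settings tried, and it was higher in the knockout library in each of the 4 depth classes. It was seen in 8.40% of knockout and 1.87% of heterozygous Sertoli barcodes thinned to 500 UMIs, against 15.6% and 7.69% of Leydig barcodes, where it was seen more often. Maged1, a MAGE family gene on the X chromosome, stood at 298.6 and 93.2 CPM (1.68), and Lgmn, the lysosomal protease legumain, at 128.3 and 40.04 CPM (1.68).

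Next in order came Slc7a5, a transporter of large amino acids, with 101.6 CPM in the knockout and 32.8 CPM in the heterozygous library, and Scd2, a fatty acid desaturase, with 108.3 and 34.9 CPM, both at a log2 ratio of 1.63. Mageb18, another MAGE gene, stood at 1.60, Wipf3, a WASP-interacting protein that binds the actin machinery, at 1.58, and Prickle1, of the planar polarity pathway, at 1.55. The log2 ratio of Prickle1 was -0.13 at 1000 to 2000 UMIs. Tfdp2, a partner of E2F factors, and the forkhead factor gene Foxn3 stood at 1.50, Qpct, glutaminyl cyclase, at 1.49 and the histone methyltransferase gene Kmt2c at 1.48. In heterozygous Sertoli barcodes Wipf3 stood at 28.4 CPM, Prickle1 at 26.2 CPM, Tfdp2 at 27.7 CPM and Kmt2c at 29.1 CPM. These levels, and those of Lgmn, Slc7a5 and Scd2, were below the minimum mean, which these genes passed through the knockout library. Their ratios thus rest on low heterozygous levels, and no intervals are given for them here. The level of Qpct in Sertoli barcodes was 215.0 CPM in the knockout and 76.4 CPM in the heterozygous library. In all other barcodes the log2 ratio was larger still for Qpct (3.01) and Mageb18 (3.40). For Lgmn (1.65) and Wipf3 (1.55) the log2 ratio there was nearly that in Sertoli barcodes, and for Maged1 it was 1.24. The rest of these highest genes had smaller log2 ratios there than in Sertoli barcodes.

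The 4 genes at least 2-fold lower were Avpi1, Lgals1, S100a1 and Defb36. Lgals1, the sugar-binding protein galectin-1, was the most abundant after Defb36, with 286.3 CPM in the knockout library (558 UMIs) and 623.9 CPM in the heterozygous library (857 UMIs), a log2 ratio of -1.12 (-1.28 to -0.97), and it stayed between -1.75 and -1.04 in the 13 other settings. In all other barcodes the log2 ratio of Lgals1 was 0.33, the opposite direction. A UMI of Lgals1 was seen in 12.7% of knockout and 21.0% of heterozygous thinned Sertoli barcodes, against 7.41% and 6.25% of Leydig barcodes. Avpi1 stood at 32.3 and 74.99 CPM (-1.21), and S100a1, a calcium-binding protein, at 43.6 and 90.3 CPM (-1.05).

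By function, the phagocytosis and lysosome genes showed the highest median. Of 24 in the list 11 were compared, all 11 were higher in the knockout library, 6 at least 2-fold, and their median log2 ratio was 1.25. Over all genes compared 57.5% were above 0 and 4.7% at least 2-fold higher, over the enriched genes 73.6% and 13%, and the 11 genes had a median of 0.48 in all other barcodes. The median stayed above 0 under each scaling tried, with 1.00 under TMM, and was 0.63 at 1000 to 2000 UMIs. Ctsl, cathepsin L, a lysosomal protease also secreted by Sertoli cells, was the most abundant at 2252 CPM in the knockout library (4389 UMIs) and 944.2 CPM in the heterozygous library (1297 UMIs), a log2 ratio of 1.25 (1.16 to 1.34). Mfge8, which bridges phagocytes to dying cells, stood at 102.6 and 37.1 CPM (1.47), the scavenger receptor Scarb1 at 72.9 and 28.4 CPM (1.36), Elmo1, which drives engulfment, at 121.1 and 48.8 CPM (1.31), and Gas6, the ligand of the engulfment receptors, at 132.4 and 82.3 CPM (0.69). The receptors themselves were too scarce to compare, with 56, 30 and 56 UMIs of Axl, Mertk and Tyro3 in the knockout and 26, 9 and 24 in the heterozygous library.

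Macrophages share several of these genes, and their markers differed between the libraries. The 9 macrophage markers summed to 221 UMIs (113.4 CPM) in knockout and 22 UMIs (16.02 CPM) in heterozygous Sertoli barcodes, with all 9 detected in the knockout and 5 at 0 in the heterozygous library. In the knockout library 12 Sertoli barcodes with at least 3 such UMIs held 203 of the 221, and no heterozygous barcode reached 3. The 4 hemoglobin genes summed to 221 and 2 UMIs, of which 2 knockout barcodes held 214, and the 8 stromal markers to 55 and 20 UMIs. Without the 16 knockout barcodes and 1 heterozygous barcode that held at least 3 UMIs of any of these lists, the median of the phagocytosis and lysosome list was 1.25, Psap stood at 1.77 and Lgmn at 1.62. Leydig markers were lower than in other barcodes, since the rule set a limit on them. Of the peritubular myoid markers, 580 UMIs in the knockout and 486 in the heterozygous library, most were Actg2 and Myl9. At least 1 such UMI was seen in 342 knockout and 315 heterozygous Sertoli barcodes. At least 3 were seen in 47 and 35 barcodes, which held 213 and 140 of these UMIs and were not left out above on that ground. The 7 endothelial markers summed to 20 and 18 UMIs (10.3 and 13.1 CPM), near the 12.2 and 12.5 CPM of all other barcodes. Pecam1 and Cdh5 among them were at 0 in both libraries.

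Few of the genes that define and instruct Sertoli cells were abundant enough to compare. Of 14 identity factors 5 were compared, 4 were above 0 and 1 below, a share near the 73.6% of enriched genes above 0, and 2 were at least 2-fold higher. Their median log2 ratio was 0.60, beside 1.68 in all other barcodes. Sox9, at least 2-fold higher, and Rhox8, the 1 below 0, are rule markers, so this list is not independent of the choice of barcodes. Wt1, a zinc finger factor needed to keep Sertoli identity, stood at 139.6 CPM in the knockout (272 UMIs) and 60.4 CPM in the heterozygous library (83 UMIs), a log2 ratio of 1.21 (0.85 to 1.58). Nr0b1 stood at 64.1 and 42.2 CPM (0.60). All 5 hormone signalling genes compared, of 14, were above 0, as were 73.6% of enriched genes. Their median was 0.53, beside 1.14 in all other barcodes. Among them were Rhox5, an androgen-responsive homeobox gene, at 218.6 and 144.1 CPM (0.60), and the inhibin subunit gene Inha at 285.8 and 215.5 CPM (0.41). The follicle-stimulating hormone receptor gene Fshr was not compared, with 47 UMIs in the knockout and 14 in the heterozygous library. Of 14 germ cell ligands Kitl alone was compared, with 75.4 and 47.3 CPM (0.67), and Gdnf had 1 and 2 UMIs.

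Barrier and cytoskeleton genes also had medians above 0. Of 22 junction genes 9 were compared, 7 were above 0 and 2 below, a share near that of the enriched genes (73.6%), with a median log2 ratio of 0.86 beside 0.12 in all other barcodes. Cldn11 (0.86), 1 of these 9, is a rule marker. Tjp1, which ties tight junctions to actin, stood at 160.1 CPM in the knockout and 75.7 CPM in the heterozygous library (1.08), Cdh2, the cadherin between Sertoli and germ cells, at 71.3 and 33.5 CPM (1.09), and Cldn3 at 70.3 and 38.6 CPM (0.87), while Espn, which bundles actin at these junctions, differed by less than its counting interval at 268.3 and 277.4 CPM (-0.05, -0.24 to 0.15). Of 15 cytoskeleton genes 12 were compared, 11 were above 0 and 1 below, with a median of 0.60 beside 0.87 in all other barcodes. Above 0 were also 57.5% of all genes compared and 73.6% of the enriched genes. Tmsb4x, which binds free actin, was the most abundant at 2391 and 1400 CPM (0.77), the intermediate filament gene Vim stood at 254.0 and 170.4 CPM (0.58), and Pfn1, profilin, at 208.3 and 73.5 CPM (1.50). Both medians stayed above 0 under each scaling tried, at 0.61 and 0.35 with TMM.

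Lists of metabolism and of secreted products split. Of 14 glucose and lactate genes, by which Sertoli cells feed lactate to germ cells, 9 were compared, 3 were above 0 and 6 below, none past 2-fold, with a median log2 ratio of -0.14 that stayed below 0 in every setting tried. Ldhb stood at 550.5 CPM in the knockout and 607.9 CPM in the heterozygous library, and the glucose transporter gene Slc2a3 at 235.0 and 120.9 CPM. All 6 lipid and cholesterol genes compared, of 18, were above 0, led by Scd2, with a median of 0.69 beside 0.49 in all other barcodes. For these lists, 57.5% of all genes compared and 73.6% of the enriched genes were above 0. Of 20 secreted products 13 were compared, 8 were above 0 and 5 below, with a median of 0.13 that turned to -0.12 under TMM. This list includes the rule markers Cst9, above 0, and Cst12, Defb19 and Defb36, below 0, so it is not independent of the choice of barcodes. Clu, clusterin, the major glycoprotein of Sertoli fluid, stood at 1287 and 1066 CPM (0.27, 0.18 to 0.37), but its log2 ratio was 0.02 under TMM and -0.21 after subtraction of the whole-library profile, and above 4000 UMIs it was lower in the knockout library (1957.8 and 2333.4 CPM). In that subtraction the profile was scaled by its spermatid RNA to 0.871 of the knockout and 1 of the heterozygous Sertoli UMIs. Most counts were thus treated as background, and whether they were was not tested. The protease inhibitor gene Cst3 stood at 343.3 and 545.3 CPM (-0.67, -0.82 to -0.52). The iron and antioxidant list had a median of 0.01 over 12 genes compared, and -0.24 under TMM, with Gpx1, a peroxidase, at 45.1 and 89.6 CPM (-0.99). Of the retinoid genes, Aldh1a1 stood at a log2 ratio of 0.56.

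Ribosomal and mitochondrial lists differed in opposite directions. Of 42 ribosomal protein genes, 5 were above 0 and 37 below, with a median log2 ratio of -0.41 that stayed below 0 in every setting tried, and -0.27 in all other barcodes. Of 13 mitochondrially encoded genes, 12 were above 0 and 1 below, with a median of 0.28 beside 0.38 in all other barcodes. In Sertoli barcodes that median was 0.03 under TMM and -0.18 after the subtraction. Of 12 heat shock and unfolded protein response genes compared, 8 were above 0 and 4 below, with a median of 0.27, or 0.02 under TMM, beside -0.03 in all other barcodes. Both immune genes compared, H2-K1 (1.42) and Nfkbia (0.68), and both early genes induced by dissociation that could be compared, Klf4 (0.87) and Jund (0.81), were above 0. In all other barcodes the immune pair had a median of 1.02 and the early pair 0.63. Over all genes compared 57.5% were above 0, and over the enriched genes 73.6%.

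**Figure D3:**
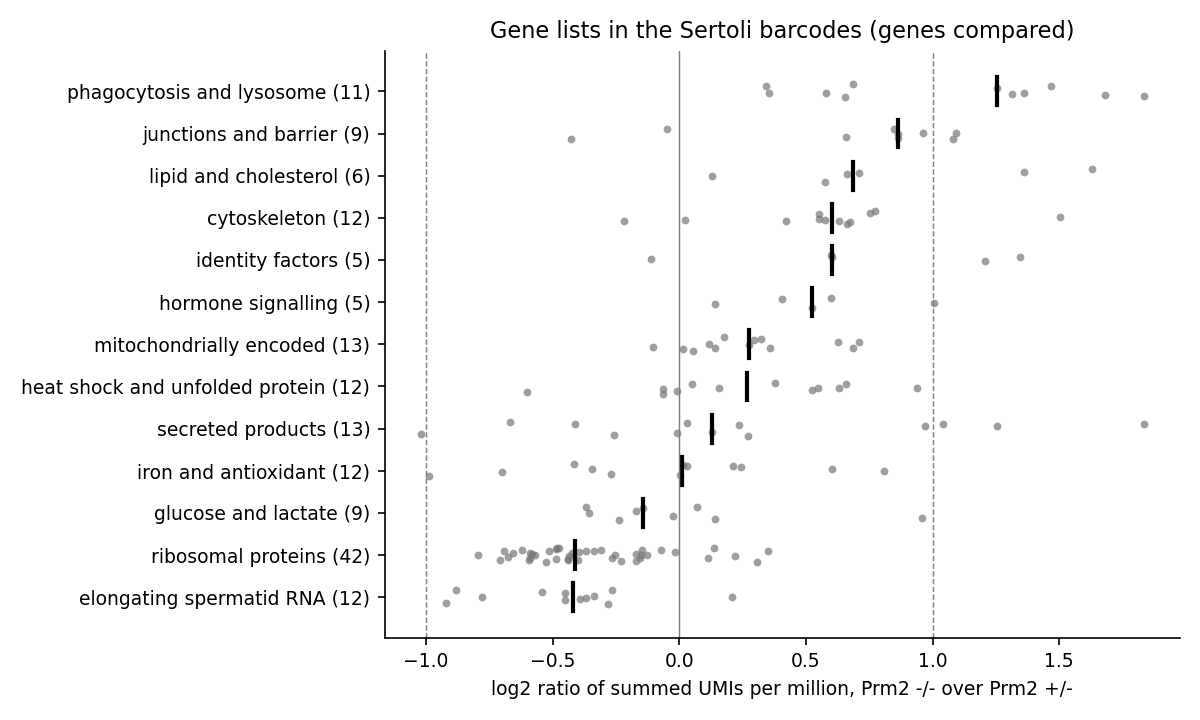
Each point is a gene compared in Sertoli barcodes, placed by its log2 ratio of CPM, knockout over heterozygous, in the list named at left with the number compared, and black bars are list medians. Solid and dashed vertical lines mark a ratio of 0 and 2-fold differences. The identity, junction and secreted lists include rule markers. The phagocytosis and lysosome list has the highest median (1.25), and the ribosomal protein (-0.41) and elongating spermatid (-0.42) lists the lowest.

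The ratio of a gene increased with the length of genome it spans. Among the 447 genes enriched in Sertoli barcodes, the 165 that span under 10 kb had a median log2 ratio of 0.12, the 129 of 10 to 30 kb 0.30, the 82 of 30 to 100 kb 0.49 and the 71 over 100 kb 0.90. The share at least 2-fold higher in the knockout library was 4.24%, 10.9%, 17.1% and 32.4% in these classes, beside 13% over all 447. The 58 higher genes spanned a median of 72.2 kb and the rest 14.7 kb, by GENCODE M21 on mm10. In all other barcodes the same genes had medians of 0.48, 0.45, 0.50 and 0.67. The rise was also seen over all 3681 genes compared in Sertoli barcodes, with medians of -0.13, 0.08, 0.22 and 0.45, against 0.05, 0.15, 0.11 and 0.14 in all other barcodes. Malat1, a long noncoding RNA that stays in the nucleus, moved with it, at 1232 CPM in knockout (2402 UMIs) and 562.8 CPM in heterozygous Sertoli barcodes (773 UMIs), a log2 ratio of 1.13 (1.01 to 1.25), and it was higher in each of the 4 depth classes. In all other barcodes its log2 ratio was 0.19, and in Leydig barcodes -0.52. Whether the libraries held different shares of nuclear RNA was not tested.

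**Figure D4:**
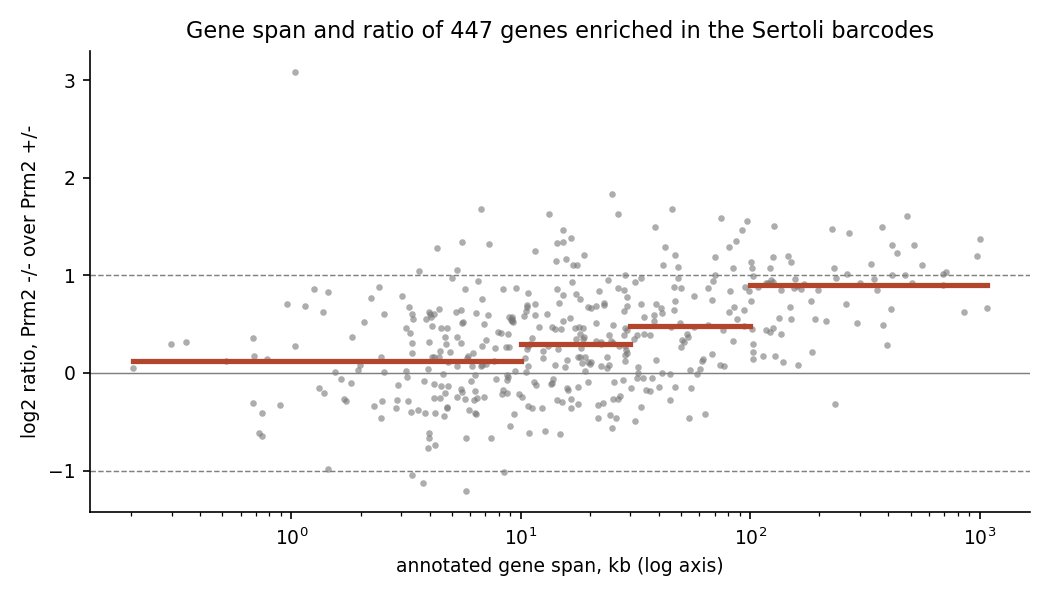
Each point is 1 of the 447 genes enriched in Sertoli barcodes, by its annotated span in kb on a log axis and its log2 ratio of CPM, knockout over heterozygous, and red bars are the medians of 4 span classes. The medians are 0.12, 0.30, 0.49 and 0.90 from short to long. The point above 3 is Gm2044, a predicted gene with 105.2 CPM in the knockout and 12.4 CPM in the heterozygous library.

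Spermatid transcripts, which Sertoli cells do not make, were a large part of these barcodes and differed between the libraries. The 12 elongating spermatid genes held 3.79% of UMIs in knockout Sertoli barcodes (3.76 to 3.81%) and 6.30% in heterozygous Sertoli barcodes (6.26 to 6.34%), against 4.36% and 6.27% in all other barcodes and 1.31% and 2.40% in Leydig barcodes. These are shares of pooled UMIs, in which deep barcodes weigh most. The median barcode held 2.235% in the knockout and 5.79% in the heterozygous library among Sertoli barcodes, against 1.76% and 4.785% among all other barcodes, so knockout Sertoli barcodes lay above the other barcodes by the median and below them by the pooled share. The highest share in a Sertoli barcode was 32.8% in the knockout and 22.2% in the heterozygous library. Barcodes of such high share were kept in all ratios, and whether they held a spermatid was not tested. As mean UMIs per barcode the 12 genes gave 82.7 and 95.05 in Sertoli barcodes, 67.1 and 90.7 in Leydig barcodes and 243.9 and 309.7 in all other barcodes. Sertoli and Leydig barcodes of a library were thus alike in this mean at unlike depth. The number was not constant across Sertoli barcodes. Their share was 2.46% at 500 to 1000 UMIs and 3.85% from 4000 UMIs in the knockout library. In the heterozygous library it was 6.30% and 7.97%, so the number rose with depth in both. Within the heterozygous library, UMIs per Prm1 UMI were 0.379 for Tnp1, 0.517 for Tnp2, 0.0623 for Prm3 and 0.435 for Prm2 in Sertoli barcodes, and 0.374, 0.512, 0.0676 and 0.442 in all other barcodes. In the knockout library they were 0.343, 0.481 and 0.0888 for Tnp1, Tnp2 and Prm3 in Sertoli barcodes and 0.427, 0.617 and 0.0911 in all other barcodes.

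Prm2 itself had 12 UMIs (6.16 CPM) in knockout and 16178 UMIs (11778 CPM) in heterozygous Sertoli barcodes, a log2 ratio of -10.9 (-11.8 to -10.1), and with barcodes thinned to 500 UMIs it was seen in 0.336% and 97.9% of them. In Leydig barcodes it was seen in 0.412% and 77.9%, and its level in all other barcodes was 6.50 and 12281 CPM, so Sertoli barcodes held Prm2 near the level of the rest of each library. On mm10 the minus-strand gene spans positions 10791380 to 10796134 of chromosome 16. Counted Prm2 RNA was thus nearly absent from the library labelled knockout, but these counts do not show which stretch of the gene was altered. Prm1 stood at 15784 CPM in knockout and 27059 CPM in heterozygous Sertoli barcodes (-0.78), Tnp1 at 5407 and 10243 CPM (-0.92), Tnp2 at 7586 and 13976 CPM (-0.88) and Prm3 at 1401 and 1685 CPM (-0.27). CPM is a share of a fixed total, which spermatid RNA enters. The ratios of Sertoli genes were also taken against the UMIs of the enriched genes, which shifts every log2 ratio by -0.27 and gives 0.78 for Cst9, -1.28 for Defb36 and 1.57 for Psap.

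**Figure D5:**
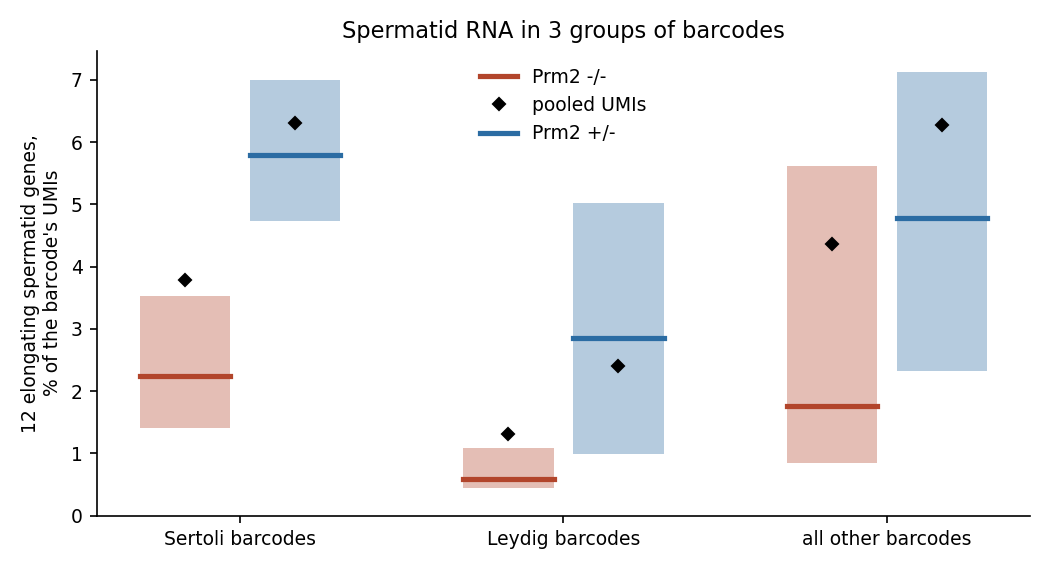
Share of each barcode's UMIs from 12 elongating spermatid genes in Sertoli barcodes, Leydig barcodes and all other barcodes (which include the Leydig barcodes), with the knockout library left and the heterozygous library right in each pair. Boxes span the quartiles, coloured lines are medians and diamonds the share of pooled UMIs, which in Sertoli barcodes was 3.79% in the knockout and 6.30% in the heterozygous library.

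Among themselves, Sertoli barcodes varied most in spermatid and mitochondrial transcripts. With barcodes of at least 1000 UMIs thinned to that depth (649 in the knockout and 463 in the heterozygous library), the variance over the mean of UMIs per barcode was highest for Prm1, at 26.1 in the knockout and 10.9 in the heterozygous library. The 15 genes with the highest value in each library shared 11, which is 73.3% of each list, among them Prm1, Tnp1, Tnp2, Smcp, Dbil5 and 4 mitochondrial genes. The Sertoli genes in these lists were Ctsl in the knockout library (3.52) and Clu in the heterozygous library (3.24). These 2 genes varied together, with a Pearson correlation across barcodes of 0.549 in the knockout and 0.668 in the heterozygous library, given as a description of cells of 1 library. Cst12 and Defb19 were correlated at 0.258 in the knockout and 0.460 in the heterozygous library, and Cst9 and Defb19 at 0.408 and 0.360, all of them markers whose sum chose the barcodes. Prm1 ran against mt-Atp6, at -0.324 and -0.284.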

How the data were processed

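Whole-testis cells of 1 Prm2 -/- and 1 Prm2 +/- library were analysed. The deposited files hold whole-number UMI counts per gene and barcode, from Cell Ranger 7.1.0 (per the file headers), and the submitters' processing notes also name Seurat 4.1.0 and the mm10 build. No barcode had fewer than 500 UMIs, so barcodes had been filtered before deposit, and 0 columns of other samples were present.

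Sertoli barcodes were taken by the marker rule given above. That rule, the gene lists and the comparisons were chosen with earlier results of these data known. UMIs were summed over the barcodes of each library and scaled to CPM. Log2 ratios, knockout over heterozygous, have exact conditional binomial intervals, shares exact Clopper-Pearson and levels exact Poisson intervals, all at 95% and for counting error only (scipy 1.17.1). No p-value was computed. A library at 0 takes a floor of 3 counts. Genes named are the 12 highest and 12 lowest log2 ratios past the size rule among enriched genes (4 were lower), the rule markers, the protamine and transition protein genes, the 4 most abundant and 4 most different genes of each list, the 15 genes of highest variance over mean and the 10 highest over other barcodes. Others named (Gm2044, Axl, Mertk, Tyro3, Fshr, Gdnf, Pecam1, Cdh5, H2-K1, Cdk8, Cmss1, Lars2, AY036118, Gm42418, Fmn1) were chosen after their values were seen or to report a scarce list member. A few genes that the lists or these rules would name are not reported here.

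Doublets were not removed, since the rule has no such step. Scrublet in scanpy 1.11.5 marked 3508 knockout barcodes (15.6%), 59 of them Sertoli barcodes, and 0 heterozygous barcodes, where its automatic threshold did not work, so leaving out the top 10% of scores in each library was added. TMM factors came from edgeR 4.0.16. The size rule and the variance over mean were tested on simulated data with known answers. Positions come from GENCODE M21, in which 32235 of 32285 gene IDs were found.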

Additional observations from a re-analysis of the deposited data

How the results depend on the processing

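No paired analysis was possible because each genotype has 1 library, and no replicate could be left out. Values are given for the knockout and then the heterozygous library. The share of Sertoli barcodes was 3.17% and 3.88% at 1000 UMIs or more (knockout over heterozygous 0.816, elongating spermatid RNA 3.93% of knockout Sertoli UMIs), 3.01% and 5.24% with at most 10% mitochondrial UMIs (0.574, spermatid RNA 4.685% and 6.92%), 1.99% and 2.76% with markers at 0.8% (0.721, 2.33% and 5.18%), 3.64% and 5.08% with 5 marker UMIs (3.82% in the knockout), and 3.52% and 4.97% after thinning to 500 UMIs before the rule (4.27% and 6.17%). It was 4.39% in the knockout without Scrublet's marks (0.725, 3.68%) and 4.325% without the top 10% of scores (3.71% and 5.97%). The settings for the top scores, for 1000 to 2000 UMIs, for barcodes with other cell types' markers and for scaling to enriched genes were chosen after seeing the data. At 1000 to 2000 UMIs the shares were 6.79% and 7.21% (0.942, 2.585% and 5.27%), with 63 genes at least 2-fold higher and 41 lower, 7 higher among enriched genes, and Prickle1 at -0.13; the cause was not tested.

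The counts also moved with scaling and level. All genes at least 2-fold higher and lower, then enriched genes higher and lower, were 68, 80, 29 and 6 under TMM, 64, 91, 28 and 7 scaled to enriched genes, 261, 112, 24 and 18 after subtraction of the whole-library profile, 281, 40, 100 and 3 with barcodes weighted equally, 429, 49, 123 and 10 at a mean of 20 CPM and 12, 12, 3 and 2 at 200 CPM. The subtraction took the profile at 0.871 of the knockout and 1 of the heterozygous Sertoli UMIs, so it left few counts for the ratios. With at most 10% mitochondrial UMIs 112 genes were higher, 23 of them enriched, and with markers at 0.8% 58 were lower. Enriched genes were 29 higher and 7 lower after thinning before the rule, and 7 lower without the top scores. Cst9 ranged from 0.55 to 1.09, Defb36 from -1.52 to -0.92 and Psap from 1.48 to 2.04 over all settings. Genes with fewer than 100 UMIs over both libraries, such as Fshr with 47 and 14, were not compared.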

Other observations

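Several genes chosen after their values were seen differed by more than 2-fold in Sertoli barcodes and, in the same direction and also by more than 2-fold but not by the same amount, in all other barcodes and in Leydig barcodes. Cmss1 stood at 284.8 CPM in knockout and 1939 CPM in heterozygous Sertoli barcodes, a log2 ratio of -2.77, and its log2 ratio was -1.77 in all other barcodes and -2.25 in Leydig barcodes. AY036118 stood at 118.5 and 854.7 CPM (-2.85 in Sertoli, -2.08 in all other and -2.60 in Leydig barcodes), and Gm42418, an annotation that overlaps ribosomal RNA, at 3775 and 10940 CPM (-1.53, -1.55 and -1.97). Cdk8 (-3.29, -2.12 and -1.90) and Lars2 (-1.17, -1.29 and -1.33) followed. In the other direction the formin gene Fmn1, which codes for an actin filament builder, stood at 102.1 CPM in knockout and 19.7 CPM in heterozygous Sertoli barcodes, a log2 ratio of 2.38, with 2.01 in all other barcodes and 1.11 in Leydig barcodes. These differences run through unlike cell types, and genes that share sequence with ribosomal RNA or with gene copies are uncertain at this level of counting.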
